A study of Rattus norvegicus with 6 samples.

Results

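Endothelial adhesion and permeability genes are described here as a set of 10: Icam1, Vcam1, Selp, Madcam1, Pecam1, Vwf, Plvap, Angpt2, Tek and Cdh5. They were taken by symbol from the count tables, which list 28282 gene symbols, and all 10 were found in every library. The measurement was single-nucleus RNA sequencing of the ileum, the last stretch of the small intestine, in 3 rats of the sham group (CON) and 3 rats with severe acute pancreatitis (SAP), with 1 library per rat. All were wild-type male Sprague-Dawley rats, 6 weeks old, given 7 days to settle, fasted after surgery and killed at 24 h. SAP was made by running 3% sodium taurocholate backwards into the pancreatic duct, at 0.1 mL per 100 g and 0.1 mL per min, with the duct clamped for 5 min. CON rats had the abdomen opened and closed with no infusion. The ileal pieces were chosen or trimmed to leave out visible Peyer's patches, but how much lymphoid tissue remained in each library was not measured.

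Endothelium controls which blood leukocytes enter a tissue. Selectins such as P-selectin (Selp) slow a passing leukocyte, and immunoglobulin-family ligands (Icam1, Vcam1 and Madcam1) then bind its integrins. Pecam1 and Cdh5 sit at the junctions between endothelial cells, Plvap forms the diaphragms of fenestrae, and Vwf is stored with P-selectin in Weibel-Palade bodies. Tek is the receptor Tie2, and Angpt2 is a ligand that can oppose the vessel-stabilising signal through it. In the gut, Madcam1 is carried by venules of the mucosa and its lymphoid tissue and binds the integrin of gut-homing lymphocytes.

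Of 90461 barcodes, 40970 nuclei passed the thresholds of at least 1200 UMIs (unique molecular identifiers, each standing for 1 captured transcript), at least 500 genes and at most 5% mitochondrial UMIs. A library held 3189 to 9246 passing nuclei and 5549260 to 28771508 UMIs, with SAP 1 the smallest on both. The tables of CON 2 and SAP 1 list barcodes down to 545 and 502 UMIs, against 1000 in the other 4, so they hold more barcodes (23914 and 26215, against 7593 to 11569). The 10 genes were left out of the clustering and of the marker lists, so their levels by class were not used to draw the classes. Clusters are called "-like" by their markers. The endothelial-like class held 573 nuclei, 1.40% of all, with 92, 42 and 200 in CON 1, 2 and 3 and 18, 58 and 163 in SAP 1, 2 and 3. All 20 endothelial markers were detected in it, among them Flt1 at 391 CPM (UMIs per 1000000 UMIs) against 13.6 in all other nuclei, and Ptprb at 374 against 8.05. A further group of 226 nuclei of the endothelial cluster, led by Mgp, Pdgfra and Col1a1, was set aside as mixed. Epithelial transcripts were also counted outside the epithelium. A sum of 5 epithelial genes (Epcam, Cdh1, Vil1, Krt20 and Krt8) stood at 2108 to 3580 CPM in endothelial-like nuclei and at 1945 to 3529 CPM in macrophage-like nuclei, against 3912 to 8992 CPM in enterocyte-like nuclei. The level of each gene in enterocyte-like nuclei is therefore given as a background. Passing nuclei of different libraries share barcode names (5398 of 34979 names), which are running numbers and not sequences. SAP 3 stood apart in its B-like nuclei, which were 10.5% of its nuclei, against 0.452% to 3.28% in the other 5 libraries.

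The promoters of the leukocyte ligands are shown because Icam1, Vcam1 and Madcam1 are known as genes that inflammatory signals switch on through NF-kappa B. A promoter was found for 4 of the 10 genes (Icam1, Vcam1, Madcam1 and Plvap) in the RefSeq table of the rat assembly GRCr8, and the 250 bases before the start site were read. Both strands were searched for the classical kappa B motif, and capitals mark its matches. Overlapping matches were allowed. Each sequence runs 5′ to 3′ on the strand of its gene. Madcam1 lies on the minus strand (chr7:10690323-10690572), Vcam1 on the minus strand (chr2:206742784-206743033) and Icam1 on the plus strand (chr8:27829595-27829844).
Madcam1: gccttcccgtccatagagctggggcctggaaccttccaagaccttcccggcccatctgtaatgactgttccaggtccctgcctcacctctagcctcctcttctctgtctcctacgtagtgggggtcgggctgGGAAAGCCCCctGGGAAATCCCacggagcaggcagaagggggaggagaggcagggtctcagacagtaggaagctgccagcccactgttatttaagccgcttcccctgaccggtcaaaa
Vcam1: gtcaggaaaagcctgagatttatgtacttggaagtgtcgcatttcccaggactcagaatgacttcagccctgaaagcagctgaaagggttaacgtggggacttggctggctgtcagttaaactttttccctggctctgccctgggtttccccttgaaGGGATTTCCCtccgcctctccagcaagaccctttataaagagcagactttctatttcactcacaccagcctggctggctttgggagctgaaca
Icam1: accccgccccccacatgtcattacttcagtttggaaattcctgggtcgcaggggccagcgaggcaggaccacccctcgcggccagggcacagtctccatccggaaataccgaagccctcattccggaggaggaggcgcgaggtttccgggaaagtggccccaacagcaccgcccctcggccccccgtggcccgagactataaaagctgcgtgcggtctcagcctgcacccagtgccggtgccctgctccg
Madcam1 had 2 matches, whose first bases lay 118 and 106 bases before the start site, and Vcam1 had 1, at 93 bases. Icam1 and Plvap had no match to this motif in this window. A site that departs from the motif was not counted, so no match does not mean that a promoter lacks a kappa B site. At least 1 match was held by 6.33% of the 33469 promoters of the table, and 2 or more by 0.965%. The letters TATAAA, on either strand, were in the promoters of Vcam1, Icam1 and Plvap and not in that of Madcam1, and 12.9% of all promoters held them. A match is a run of letters and says nothing of binding in these rats.

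Across the classes of nuclei, the genes fell into those with their highest level in endothelial-like nuclei and those shared with leukocytes, stroma or epithelium. These levels are a description, without a test. Means and SDs are over the 6 libraries, and 18 classes or clusters had at least 10 nuclei in each.

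Of the adhesion ligands, Madcam1 was highest in endothelial-like nuclei, at 103 ± 124 CPM (SD, n = 6 libraries). The next of the 18, neutrophil-like nuclei, stood at 6.56 ± 11.5 CPM from 3 UMIs. The 226 nuclei set aside, too few in CON 2 to be among the 18, held Madcam1 at 15.2 ± 28.7 CPM. Endothelial-like nuclei held 42.1% of all 311 Madcam1 UMIs. Enterocyte-like nuclei held 1.33 CPM with all libraries summed, against 90.1 CPM in endothelial-like nuclei. The wide SD reflects 2 SAP libraries, described further on. Selp was also highest in endothelial-like nuclei, at 25.8 ± 35.8 CPM, but its 23 UMIs there overlapped the range of T-like (5.93 ± 9.18 CPM) and neutrophil-like nuclei. The Selp background in enterocyte-like nuclei was 0.665 CPM. Endothelial-like nuclei held 1.45% of all UMIs, and every member had most of its UMIs outside them. Icam1, which leukocytes and stroma also carry, had 95.6% of its 585 UMIs outside the endothelial-like class. Its highest mean, in macrophage-like nuclei, was 66.2 ± 98.3 CPM, with neutrophil-like (29.0 ± 26.1 CPM), B-like (23.2 ± 26.7 CPM) and endothelial-like nuclei (16.6 ± 9.95 CPM) next, and none of these neighbours differed beyond its spread. Its background in enterocyte-like nuclei was 2.51 CPM.

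Among the 18 classes or clusters compared, Vcam1 had its highest mean in fibroblast-like nuclei. It stood at 28.0 ± 38.0 CPM in fibroblast-like nuclei and 4.97 ± 6.32 CPM in endothelial-like nuclei. Fibroblast-like nuclei held 38 of its 200 UMIs and endothelial-like nuclei 11. An unnamed cluster of 136 nuclei held another 40 UMIs, a level of 136 CPM (exact Poisson 95% interval 97.3 to 186). This cluster had too few nuclei in some libraries to be among the 18, and its mean over libraries was higher, at 58.3 ± 93.9 CPM. That cluster was led by Xkr4, Cr2 and Ntng1, and also by Cxcl13, a chemokine that draws B cells into follicles. All 40 UMIs came from CON 3 (10 UMIs) and SAP 3 (30 UMIs). In enterocyte-like nuclei Vcam1 was at 0.870 CPM.

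The junction and receptor genes Tek and Cdh5 and the fenestral gene Plvap stood well above their background in the endothelial-like class. In enterocyte-like nuclei, with all libraries summed, Tek was at 1.89 CPM, Cdh5 at 1.07 CPM and Plvap at 1.53 CPM. Tek stood at 101 ± 43.9 CPM there, and its lowest endothelial-like library (51.5 CPM) lay above every library of all 17 other classes. Plvap stood at 84.5 ± 45.5 CPM, against 10.2 ± 15.9 CPM in neutrophil-like nuclei, the next class of those compared. The nuclei set aside from the endothelial cluster, which were not among those compared, held Plvap at 41.2 ± 40.1 CPM, within the endothelial-like spread. Cdh5, the VE-cadherin of adherens junctions, stood at 43.3 ± 26.0 CPM, against 9.68 ± 6.38 CPM in an unnamed cluster of 713 nuclei. In the nuclei set aside Cdh5 was at 10.4 ± 9.54 CPM and Vwf at 31.0 ± 20.8 CPM. Vwf, which carries platelets to damaged vessel walls, stood at 183 ± 127 CPM, and 15 of the 17 other classes had all their libraries below its lowest endothelial-like library. The Vwf background in enterocyte-like nuclei was 3.89 CPM, and Paneth-like nuclei held 151 of its 1074 UMIs at 17.6 ± 12.7 CPM.

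Pecam1, which leukocytes and platelets carry as well, had high levels in several classes. Its mean was 406 ± 139 CPM in endothelial-like nuclei, 266 ± 200 CPM in B-like nuclei and 234 ± 94.2 CPM in macrophage-like nuclei, and these 3 did not differ beyond their spread. Endothelial-like nuclei held 11.2% of its 5577 UMIs and B-like nuclei 24.5%. Without SAP 3, the library with the most B-like nuclei, the order turned, with 15.9% of 2313 UMIs in endothelial-like and 12.4% in B-like nuclei. A Pecam1 UMI was found in 45.2% of endothelial-like nuclei, 48.1% of B-like nuclei and 4.35% of enterocyte-like nuclei, at median depths of 1818, 1771 and 1922 UMIs. With all libraries summed, the Pecam1 background in enterocyte-like nuclei was 19.4 CPM.

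Of the 10 members, Angpt2 had the smallest share of its UMIs in endothelial-like nuclei. Its mean was 22.3 ± 8.58 CPM in stem/TA-like nuclei, the proliferating cells of the crypt, and 20.4 ± 13.8 CPM in endothelial-like nuclei. Stem/TA-like nuclei held 31.8% of its 1316 UMIs and endothelial-like nuclei 2.81%, against 17.3% and 1.45% of the UMIs of all genes. With all libraries summed, it was at 5.63 CPM in enterocyte-like nuclei. In the GRCr8 annotation of RefSeq, Angpt2 lies inside the span of Mcph1, a gene of DNA-damage control and chromosome condensation. The sources used here do not state whether the counting used strand, so reads of Angpt2 and Mcph1 may not be told apart. Mcph1 had 32.3% of its UMIs in stem/TA-like nuclei, and T-like nuclei held 10.3% of them, against 9.35% for Angpt2. There were 13.4 Angpt2 UMIs for every 100 Mcph1 UMIs over all nuclei, 13.3 in stem/TA-like and 14.1 in enterocyte-like nuclei, and 29.4 in endothelial-like nuclei. Over the 16 named classes the log2(CPM + 1) of the pair had a Pearson r of 0.74, given as a description. The Angpt2 values below therefore carry this doubt. Plvap overlaps an uncharacterised non-coding gene (LOC134482466) in the same annotation.

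**Figure D1:**
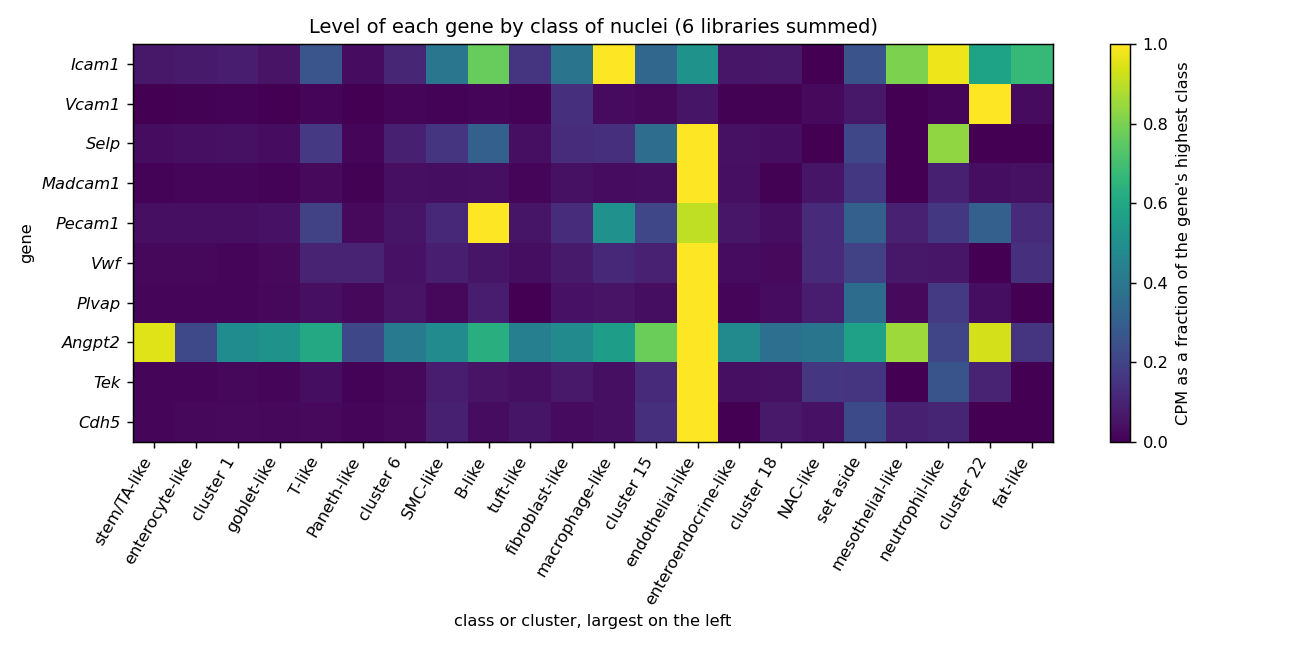
Level of each gene (rows) in each class or cluster of nuclei (columns, the largest on the left), as CPM over 6 summed libraries divided by that of the gene's highest class (colour, 0 to 1). Tek, Plvap, Cdh5, Vwf, Madcam1 and Selp peak in the endothelial-like column, Vcam1 in cluster 22 and Icam1 in macrophage-like nuclei, and Angpt2 is spread over many columns. Pecam1 peaks in B-like nuclei in this sum, but in endothelial-like nuclei by the mean over libraries (406 against 266 CPM) and in the sum without SAP 3 (360 against 270 CPM). Angpt2 is highest in endothelial-like nuclei in this sum (25.4 against 24.2 CPM in stem/TA-like nuclei), but in stem/TA-like nuclei by the mean over libraries.

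The genes whose levels ran most like those of each member over the 16 named classes were compared on the log2(CPM + 1) scale, among 15593 genes, without a test. For Madcam1 they were Egfl7 (Pearson r = 0.94), Shank3 (0.94) and Ushbp1 (0.93). For Cdh5 they were Cldn5 (0.93), Flt4 (0.89) and Ccdc85a (0.87), and for Plvap Cldn5 (0.90), Cd93 (0.90) and Ptprb (0.90). Tek ran with LOC100911413 (0.94), Arhgef15 (0.93) and Adgrg3 (0.93), Vwf with Gng11 (0.89), Emcn (0.86) and Klhl4 (0.84), and Selp with Lyve1 (0.90), Cd93 (0.90) and LOC120097545 (0.89). Pecam1 ran with Mef2c (0.94), Fmnl3 (0.93) and Fli1 (0.92). The neighbours of Icam1 were Zfp36l1 (0.90), Map3k8 (0.89) and Irf5 (0.89), those of Vcam1 were Rtn4rl2 (0.94), Adamtsl2 (0.91) and LOC102548537 (0.89), and those of Angpt2 were Psma5 (0.95), Zfp444 (0.93) and LOC120101912 (0.92). The classes share the same 6 libraries. Egfl7, Shank3, Cldn5, Cd93, Ptprb, Emcn, Flt4 and Lyve1 are on the endothelial or lymphatic marker lists used in naming the classes. Their likeness to members highest in the endothelial-like class is therefore not separate evidence. Unnamed clusters were left out here, among them the one with the highest Vcam1 level.

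The first comparison asked whether the genes differed between SAP and CON over all nuclei, where the number of expressing nuclei and the level in each cannot be told apart. None of the 10 genes was called by edgeR's quasi-likelihood test at an adjusted p under 0.05 and a log2 fold change of at least 0.5. The background was 0% (0 of 19187 genes called, 1618 with an unadjusted p under 0.05), and no member was under 0.05 unadjusted. DESeq2 called 215 of 19187 genes (1.12%) and none of the 10. The groups overlapped for every member, while 8.09% of genes with at least 10 UMIs had groups without overlap. The median log2 fold change of the 10 genes was 0.47, with 8 of 10 positive, against 0.02 over all genes tested. It rested on SAP 3, without which it was -0.54 with 3 of 10 positive. It was 0.11 without CON 2 and 1.15 without CON 3. In pairs of libraries with the same number, 4 members (Madcam1, Selp, Tek and Cdh5) were higher in SAP in 3 of 3 pairs, as were 19.9% of genes with at least 10 UMIs, and none was lower in all 3. In CON 2 and SAP 2 the values were close for Selp (0.965 and 0.968 CPM) and Madcam1 (0.526 and 0.581 CPM), and the labels state no pairing.

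Among the adhesion ligands, Madcam1 stood at 1.22, 0.526 and 2.94 CPM in CON 1, 2 and 3 and at 3.42, 0.581 and 9.47 CPM in SAP 1, 2 and 3. SAP 1 and SAP 3 lay above all CON libraries and SAP 2 within them. The log2 fold change of SAP against CON was 1.40 ± 0.86 (SE; edgeR, adjusted p = 0.718). Leaving out 1 library moved it to between 0.51, without SAP 3, and 1.92, without SAP 2. Selp stood at 0.348, 0.965 and 1.67 CPM in CON and at 2.16, 0.968 and 3.29 CPM in SAP. For Selp the log2 fold change was 1.14 ± 0.62 (SE; edgeR, adjusted p = 0.674). Vcam1 stood at 0.556, 0.175 and 2.33 CPM in CON and at 1.08, 0.129 and 6.59 CPM in SAP, and 128 of its 200 UMIs came from SAP 3. The Vcam1 log2 fold change was 1.23 ± 1.12 (SE; edgeR, adjusted p = 0.834) and became -0.70 without SAP 3. Icam1 stood at 3.75, 5.79 and 6.08 CPM in CON and at 3.604, 1.94 and 12.4 CPM in SAP, so SAP held both the highest and the lowest library. The Icam1 log2 fold change was 0.07 ± 0.55 (SE; edgeR, adjusted p = 0.984). The study reports higher ICAM-1 in the ileum of SAP rats by qPCR and by Western blot of protein, measures unlike the nuclear RNA counted here.

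Pecam1 was highest in CON 3 and SAP 3, the 2 libraries with the largest B-like shares. It stood at 15.7, 23.5 and 60.2 CPM in CON and at 24.0, 17.6 and 168 CPM in SAP, with a log2 fold change of 0.95 ± 0.71 (SE; edgeR, adjusted p = 0.779) that became -0.38 without SAP 3. SAP 3 had the highest Pecam1 level of the 6 libraries in 17 of the 18 classes, enterocyte-like nuclei included (55.8 CPM, against 4.99 to 28.9 CPM in the other 5 libraries). The B-like shares of nuclei were 0.984%, 0.783% and 3.28% in CON and 0.815%, 0.452% and 10.5% in SAP, and their part in these values was not tested.

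Of the vessel-wall genes, Vwf stood at 12.4, 6.93 and 11.6 CPM in CON and at 4.87, 2.39 and 17.8 CPM in SAP. SAP 3 was the highest library and the other SAP libraries were the lowest. Its log2 fold change was -0.53 ± 0.61 (SE; edgeR, adjusted p = 0.873). Plvap ranged from 1.14 to 4.76 CPM in CON and from 0.452 to 9.67 CPM in SAP. The Plvap log2 fold change was 0.23 ± 0.87 (SE; edgeR, adjusted p = 0.968). Tek ranged from 1.58 to 7.65 CPM in CON and from 2.84 to 8.90 CPM in SAP, and Cdh5 from 0.351 to 3.39 CPM in CON and from 1.61 to 4.53 CPM in SAP. For Tek the log2 fold change was 0.35 ± 0.59 (SE; edgeR, adjusted p = 0.914) and for Cdh5 0.58 ± 0.70 (adjusted p = 0.879). Angpt2 stood at 15.01, 18.4 and 13.7 CPM in CON and at 9.01, 3.42 and 15.5 CPM in SAP, with SAP 3 inside the CON range. Its log2 fold change was -0.88 ± 0.47 (SE; edgeR, adjusted p = 0.668), beside -0.85 ± 0.34 for Mcph1 (adjusted p = 0.568).

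**Figure D2:**
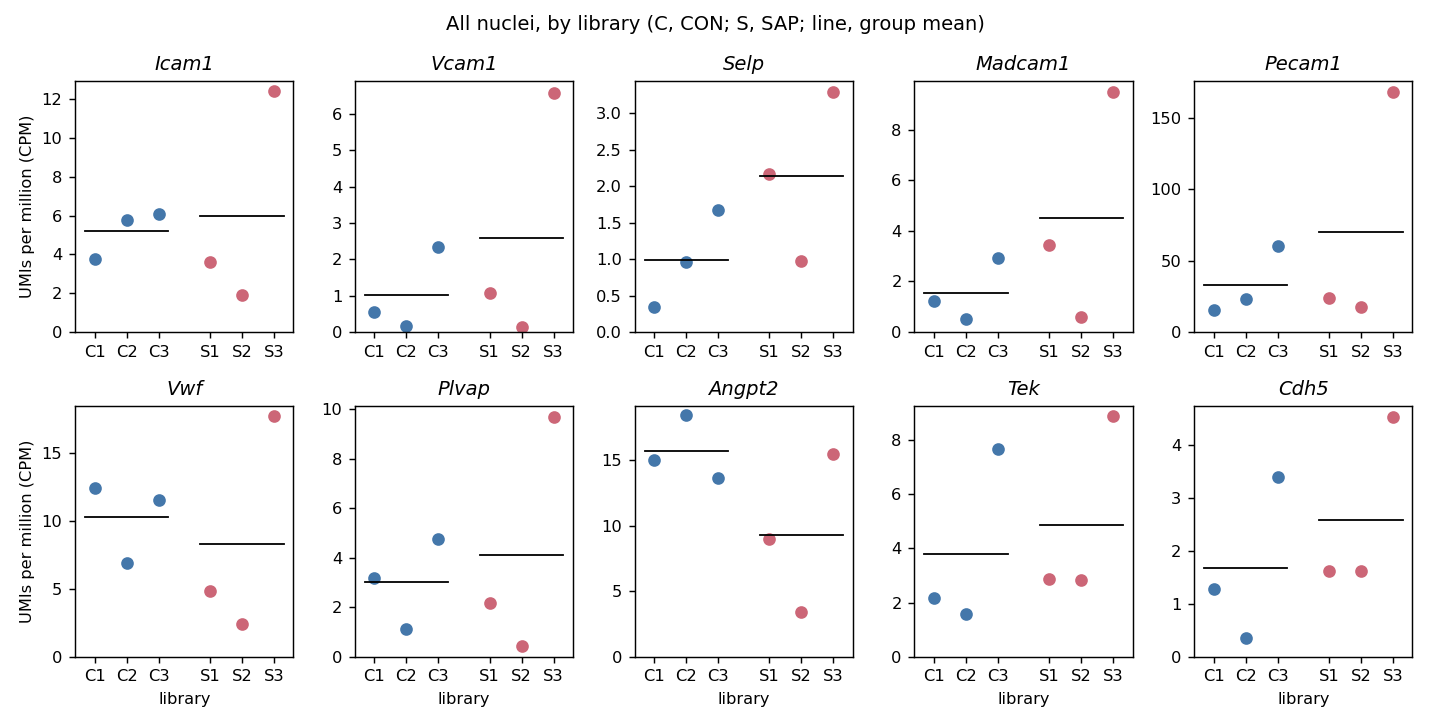
CPM of each gene in all passing nuclei, 1 point per library (C1 to C3, CON; S1 to S3, SAP), with the group mean as a line. SAP 3 is the highest point for 9 of the 10 genes, all but Angpt2, and the groups overlap in every panel.

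The endothelial-like nuclei themselves were not detectably more or less frequent. Their share was 0.995%, 0.671% and 2.38% of nuclei in CON and 0.564%, 0.972% and 2.07% in SAP, and the groups overlapped. The means were 1.348% ± 0.906 in CON and 1.2005% ± 0.776 in SAP (SD, n = 3 each). An exact two-sided permutation test gave p = 0.6, where 3 against 3 cannot go below 0.1. In limma's fit of the logit shares of all classes the difference of SAP minus CON was -0.11 (adjusted p = 0.999).

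Within endothelial-like nuclei, Selp and Madcam1 had the largest SAP against CON values among the 10 genes, and both rest on few UMIs. Counts per library ran from 41931 UMIs in SAP 1 to 477076 in CON 3. Only 4 of the 10 genes (Pecam1, Vwf, Plvap and Tek) passed the filter on low counts, and none of the 4 was called. The background was 0.0190% (1 of 5271 genes called, 252 with an unadjusted p under 0.05), DESeq2 called 0 genes and none of the 4 members had an unadjusted p under 0.05.

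Madcam1 was counted 5, 2 and 20 times in CON and 13, 3 and 88 times in SAP. These are 19.6, 21.9 and 41.9 CPM in CON and 310, 19.3 and 203 CPM in SAP. SAP 1 and SAP 3 were each above every CON library and SAP 2 was the lowest of all 6. The order of SAP 2, CON 1 and CON 2 rests on 3, 5 and 2 UMIs and is not certain. SAP 3, which gave 88 of the 131 UMIs, also had the largest B-like share of nuclei (10.5%), while that of SAP 1 was 0.815%. The part of lymphoid tissue in these Madcam1 values was not tested. The group means were 27.8 ± 12.3 and 178 ± 147 CPM (SD, n = 3 each; exact two-sided permutation test, p = 0.4). Nuclei with a Madcam1 UMI were 5 of 92, 2 of 42 and 8 of 200 in CON and 6 of 18, 3 of 58 and 24 of 163 in SAP, so the SAP 3 counts came from many nuclei, with at most 14 UMIs in any. Without the filter on low counts, edgeR called it (log2 fold change 2.27 ± 0.52, SE, adjusted p = 0.0220, with 16 of 21365 genes called). It was also called without SAP 2, its lowest library (2.89 ± 0.45, adjusted p = 0.00623), where 0.0423% of genes (3 of 7097) were called. That fit drops the lowest SAP library and keeps those above all CON libraries, so it is not separate evidence of a difference. In the other 5 fits in which Madcam1 passed the filter its log2 fold change was 1.84 to 2.86 and its adjusted p 0.780 or higher.

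Selp was counted 0, 0 and 5 times in CON and 4, 4 and 10 times in SAP, or 0, 0 and 10.5 CPM against 95.4, 25.8 and 23.1 CPM. The values of the SAP libraries lay above those of the CON libraries, and it was the 1 member whose groups did not overlap here. The order is not certain within counting error, since a count of 0 allows up to 40.4 CPM in CON 2 and 14.5 CPM in CON 1 (upper end of the exact Poisson 95% interval). Such separation held for 9.90% of the 12864 genes with at least 10 UMIs in these nuclei. The group means were 3.49 ± 6.05 and 48.1 ± 41.0 CPM (SD, n = 3 each; exact two-sided permutation test, p = 0.1, the smallest this design allows). Without the filter on low counts the log2 fold change was 2.48 ± 0.96 (SE; edgeR, adjusted p = 0.770). Sele, the other endothelial selectin of inflamed vessels, had 0 UMIs in endothelial-like nuclei of all libraries, of 1453991 UMIs, which allows up to 2.54 CPM by the same interval.

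Vwf stood at 411, 175 and 111 CPM in CON and at 215, 38.6 and 145 CPM in SAP, so the groups overlapped. Its log2 fold change was -1.03 ± 0.65 (SE; edgeR, adjusted p = 1.00), but -0.085 without CON 1 and -1.43 without CON 3. Pecam1 stood at 337, 372 and 409 CPM in CON and at 525, 200 and 591 CPM in SAP, with SAP holding the 2 highest libraries and the lowest. The Pecam1 log2 fold change was 0.24 ± 0.41 (SE; edgeR, adjusted p = 1.00). Tek stood at 98.0, 65.7 and 88.0 CPM in CON and at 167, 51.5 and 139 CPM in SAP, the same pattern, with a log2 fold change of 0.36 ± 0.46 (SE; adjusted p = 1.00). Plvap stood at 110, 87.6 and 67.1 CPM in CON and at 95.4, 6.44 and 141 CPM in SAP, and SAP 2 gave 1 UMI. Its log2 fold change was -0.05 ± 0.67 (SE; edgeR, adjusted p = 1.00).

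The remaining members had at most 23 UMIs in a library. Cdh5 stood at 78.4, 0 and 48.2 CPM in CON and at 47.7, 32.2 and 53.1 CPM in SAP. Angpt2 stood at 23.5, 32.8 and 29.3 CPM in CON and at 0, 6.44 and 30.0 CPM in SAP. Icam1 stood at 27.4, 10.95 and 16.8 CPM in CON and at 23.8, 0 and 20.8 CPM in SAP, and Vcam1 at 11.8, 0 and 4.19 CPM in CON and at 0, 0 and 13.9 CPM in SAP. All 4 overlapped between groups and none passed the filter on low counts. What difference could be detected at this depth was not measured. Mcph1, the host gene of Angpt2, stood at 180, 142 and 92.2 CPM in CON and at 47.7, 25.8 and 39.2 CPM in SAP.

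SAP 2 was the lowest library for Madcam1, Pecam1, Vwf, Plvap and Tek, and its endothelial-like nuclei also held the least of the endothelial marker list. The 20 markers summed to 2602, 2080 and 2564 CPM in CON and to 4126, 1153 and 3599 CPM in SAP, with none of the 20 at 0 in either group. Fibroblast markers (13 genes, all detected) summed to 692 to 1062 CPM in CON and 77.3 to 1117 CPM in SAP, and B-cell markers (11 genes, all detected) to 505 to 1006 and 515 to 1524 CPM. Pericyte markers (10 genes) summed to 216, 142 and 277 CPM in CON and to 453, 96.6 and 646 CPM in SAP, the same order as Tek and Pecam1 in that SAP 1 and SAP 3 were high and SAP 2 lowest. Enterocyte markers (13 genes) summed to 1089 to 2826 CPM in CON and 1720 to 3684 CPM in SAP, with SAP 2 the highest. Stem/TA markers (15 genes) were lower in every SAP library, at 787 to 1282 CPM against 1358 to 2041 CPM in CON, without overlap. The other marker lists given here overlapped between groups. Among single genes with at least 10 UMIs in these nuclei, 9.90% had groups without overlap. Pecam1, Vwf and Selp are also carried by megakaryocytes and platelets. Of 4 megakaryocyte genes in the tables Gp9 was at 0 in these nuclei, and the 4 summed to 27.2 to 54.7 CPM in CON and 0 to 47.7 CPM in SAP. The part of these in the values above was not tested.

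**Figure D3:**
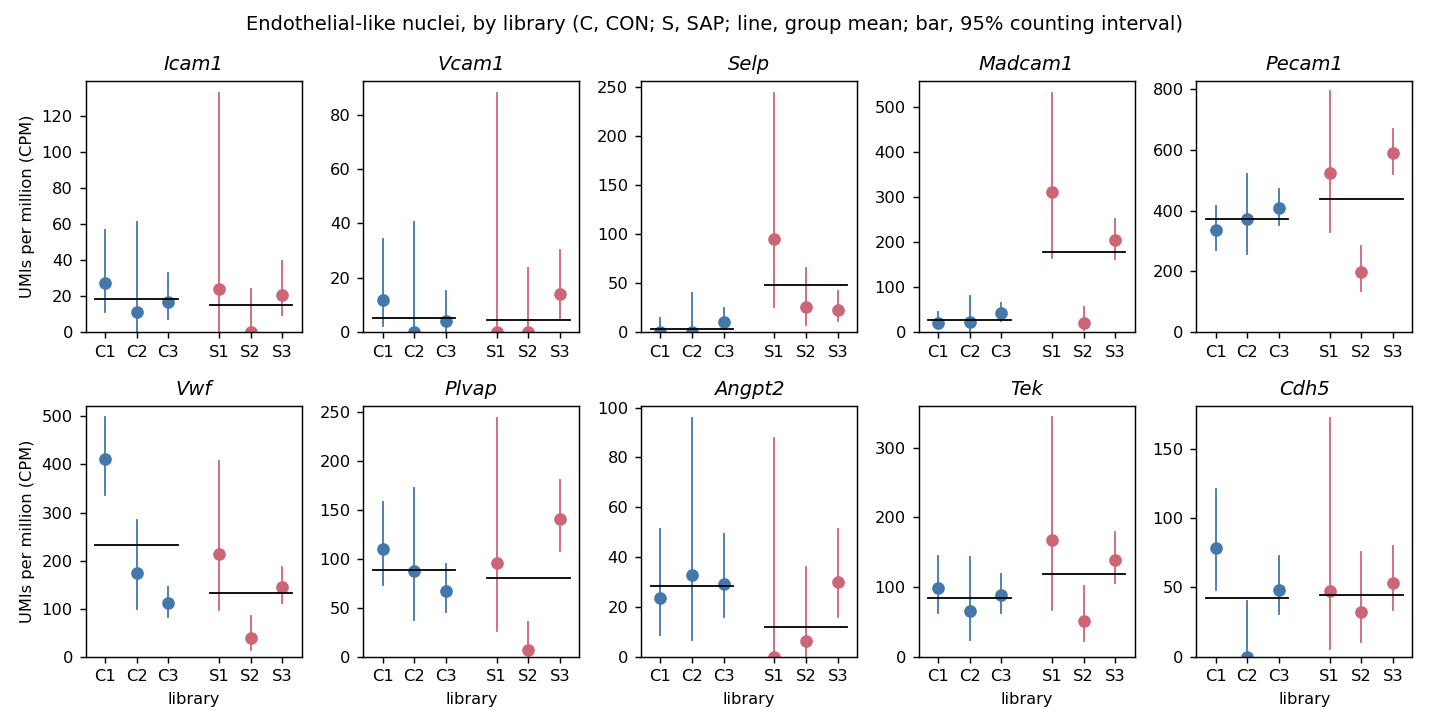
CPM of each gene in endothelial-like nuclei, 1 point per library with its exact Poisson 95% interval as a bar (counting error only) and the group mean as a line. Selp is the 1 panel whose groups do not overlap, Madcam1 is at 310 and 203 CPM in S1 and S3, and S2 is low in most panels.

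A direct test asked whether the SAP against CON difference was not the same in endothelial-like nuclei as in all other nuclei, by an interaction term. All 10 genes passed the filter and none was called, with a background of 0.0127% (2 of 15734 genes called, 543 with an unadjusted p under 0.05). The interaction was positive for 2 of the 10 genes, with a median of -0.68, against -0.09 over all genes. Without SAP 3 it was positive for 5, with a median of -0.16. Madcam1 had an interaction of 1.51 ± 0.69 on the log2 scale (SE; edgeR, adjusted p = 1), which is a larger log2 fold change in endothelial-like nuclei. Outside them it stood at 1.05, 0.354 and 1.97 CPM in CON and 1.09, 0.391 and 5.05 CPM in SAP. For Selp the interaction was 1.77 ± 0.97 (SE; edgeR, adjusted p = 1). Pecam1 had the lowest unadjusted p of the 10 genes and the opposite sign, with -0.90 ± 0.32 (SE; edgeR, adjusted p = 1), and 0.10 without SAP 3. Outside endothelial-like nuclei it stood at 12.8, 20.7 and 51.6 CPM in CON and 20.2, 15.7 and 158 CPM in SAP. Madcam1 and Pecam1 were the 2 members with an unadjusted p under 0.05.

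**Figure D4:**
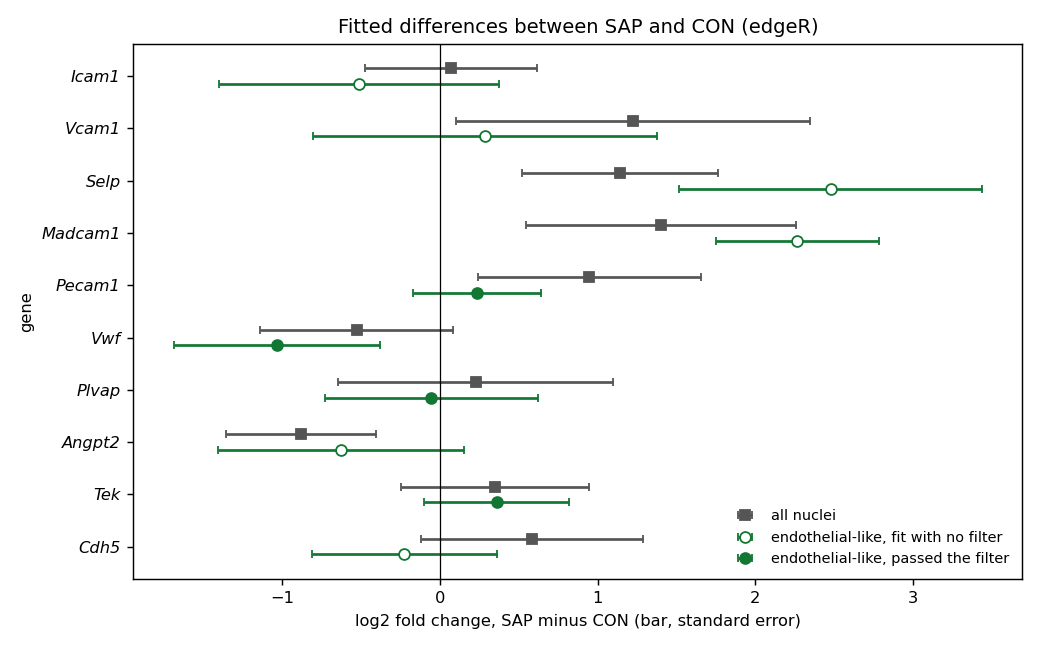
Log2 fold change of SAP against CON with its standard error for each gene, in all nuclei (squares) and in endothelial-like nuclei (circles; filled where the gene passed the filter on low counts, open where the value is from the fit with no filter). Selp and Madcam1 have the largest values in endothelial-like nuclei, at 2.48 and 2.27, and no filled circle or square was called.

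The endothelial-like class was made of 4 sub-groups, clustered without the 10 genes, and the members were spread unevenly over them. Levels here are summed over libraries and are a description. The largest sub-group, of 184 nuclei, was led by Glycam1, Adgrg6, Il33 and Slco2a1, with Ackr1 among its leading genes, and Glycam1 and Ackr1 are known from venules that lymphocytes enter. Only 5.43% of its nuclei had a Glycam1 UMI, against 12.0% for Ackr1 and 30.4% for Il33. The name used here thus follows the level of Glycam1 and does not describe most of the nuclei. This sub-group held 109 of the 131 Madcam1 UMIs (250 CPM), 20 of the 23 Selp UMIs (45.8 CPM) and 169 of the 252 Vwf UMIs (387 CPM). A sub-group of 138 nuclei led by Reln and Prox1, which scored as lymphatic endothelial, had no Madcam1 UMI and 1 of Vwf. It had Pecam1 at 230 CPM, Cdh5 at 43.7 CPM and 12 UMIs of Angpt2 (47.7 CPM).

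Plvap was highest in the sub-group of 106 nuclei led by Fabp4 and Cfd, at 197 CPM (91 of 134 UMIs), with Cdh5 at 80.0 CPM and Tek at 106 CPM. This sub-group was deeper (median 2848 UMIs) and carried stromal genes such as Pdgfra and Tagln. It had 15, 5 and 30 nuclei in CON 1, 2 and 3 and 4, 2 and 50 in SAP 1, 2 and 3. The part of this in the Plvap values by library was not tested. The last, of 145 nuclei led by Ankle1 and Prc1, had low levels, with Pecam1 at 211 CPM and Vwf at 33.0 CPM, and held no Vcam1 or Selp. Of the 8 marker lists scored against the other endothelial-like nuclei, the stem/TA list was its highest (mean log2 ratio 0.61), and its leading genes included Prc1, Cenpf, Kif14 and Chaf1a, known from dividing cells. It made up 99 of the 334 CON nuclei and 46 of the 239 SAP nuclei. With it left out of the class none of the 4 members tested was called, and Pecam1 went from 0.24 to -0.03 and Vwf from -1.03 to -1.31 on the log2 scale. With the Fabp4-led sub-group left out instead, 3 members passed the filter on low counts and none was called. Pecam1 was then at 0.41, Tek at 0.22 and Vwf at -1.46. Both alternatives were chosen after the data were seen.

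Within the Glycam1-led sub-group, Selp had 2 UMIs in 103 CON nuclei (8.81 CPM, exact Poisson 95% interval 1.07 to 31.8) and 18 UMIs in 81 SAP nuclei (85.8 CPM, 50.8 to 136). By library Selp stood at 0, 0 and 16.1 CPM in CON and at 195, 39.7 and 113 CPM in SAP. The SAP values came from 4, 4 and 10 UMIs, those of SAP 1 in 9 nuclei of this sub-group. Madcam1 stood at 51.4, 80.7 and 153 CPM in CON and at 293, 29.8 and 845 CPM in SAP, so the SAP 2 value was again below all CON values. These are 4, 2 and 19 UMIs in CON and 6, 3 and 75 UMIs in SAP. The order of the low Madcam1 values therefore rests on few UMIs, and most SAP UMIs came from SAP 3. Vwf stood the other way, at 1106, 565 and 290 CPM in CON and at 293, 59.6 and 237 CPM in SAP, with CON 3 and SAP 1 at the same level. Glycam1 was counted here in CON 3 (804 CPM) and SAP 3 (958 CPM) and in no other library. Intervals cover counting error only, and the nuclei of a library are not replicates of a rat.

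**Figure D5:**
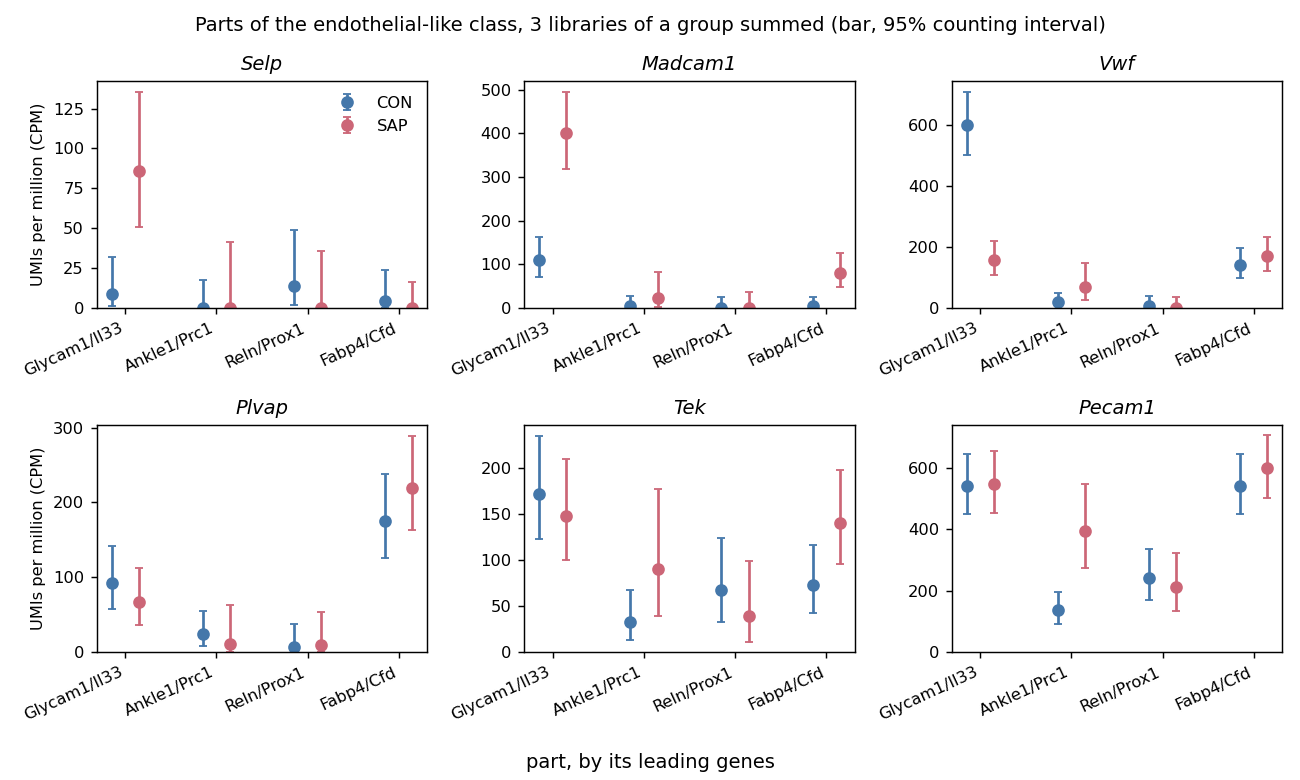
CPM of 6 genes in the 4 sub-groups of endothelial-like nuclei, with the 3 CON libraries summed in blue and the 3 SAP libraries in red, and exact Poisson 95% intervals as bars (counting error only, not the spread between rats). In the sub-group led by Glycam1 and Il33, Selp and Madcam1 are higher in the SAP sum and Vwf is higher in the CON sum (599 against 157 CPM). SAP 3 gave 75 of the 84 SAP UMIs of Madcam1 there, and CON 1 gave 86 of the 136 CON UMIs of Vwf.

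In the other classes and clusters, 17 fits allowed 23 tests of the members, and none was called. The background over these fits was 0.0153% (21 of 137519 tests called), and DESeq2 called none of the members. Pecam1 could be tested in 12 of them and Angpt2 in 6, while Vcam1, Selp, Madcam1, Plvap, Tek and Cdh5 passed the filter in none. One member test had an unadjusted p under 0.05, Angpt2 in enterocyte-like nuclei. It stood there at 8.49, 14.8 and 6.14 CPM in CON and at 3.23, 1.53 and 5.35 CPM in SAP, without overlap, as for 8.70% of genes with at least 10 UMIs there, and its log2 fold change was -1.54 ± 0.57 (SE; edgeR, adjusted p = 0.552). Icam1 in macrophage-like nuclei stood at 25.2, 13.8 and 36.9 CPM in CON and at 265, 11.1 and 45.4 CPM in SAP, and the high SAP 1 value came from 9 UMIs. Its log2 fold change was 1.09 ± 0.83 (SE; edgeR, adjusted p = 1.00). In T-like nuclei Icam1 stood at 10.2, 14.6 and 10.0 CPM in CON and at 8.12, 3.80 and 9.69 CPM in SAP (log2 fold change -0.64 ± 0.52, SE; edgeR, adjusted p = 0.846). Vcam1 in fibroblast-like nuclei stood at 13.6, 10.9 and 14.2 CPM in CON and at 104, 0 and 25.4 CPM in SAP, where SAP 1 gave 5 UMIs and SAP 2 none. Vwf in Paneth-like nuclei stood at 12.5, 36.9 and 30.0 CPM in CON and at 9.71, 5.01 and 11.8 CPM in SAP, without overlap, as for 6.83% of genes there, from 140 and 11 UMIs. It did not pass the filter there.

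Other genes of the same pathways were read from 4 lists with 75 symbols, of which 74 were in the tables. Over all nuclei 71 were tested and none was called by edgeR, with 3 at an unadjusted p under 0.05, and their median log2 fold change was 0.18 against 0.02 over all genes. By list, 14 of 19 leukocyte adhesion genes, 13 of 17 angiopoietin and VEGF genes, 16 of 22 junction genes and 8 of 13 Weibel-Palade and clotting genes had a positive value. In endothelial-like nuclei 39 were tested, none was called and 20 had a positive value, with 1 at an unadjusted p under 0.05 and none called by DESeq2.

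The 3 pathway genes with the lowest unadjusted p over all nuclei were Mfsd2a, Adm and F11r. Mfsd2a, a lysophospholipid carrier of barrier endothelium that other tissues use too, stood at 15.2, 25.2 and 28.3 CPM in CON and at 40.2, 49.3 and 45.3 CPM in SAP. Its log2 fold change was 1.02 ± 0.27 (SE; edgeR, adjusted p = 0.545). The groups did not overlap for Mfsd2a, nor for Adm and F11r, as for 8.09% of all genes with at least 10 UMIs. DESeq2 called Mfsd2a, alone among the 71 genes of the lists (1.05 ± 0.30, adjusted p = 0.0353), a share near its background of 1.12%. Adm, the peptide adrenomedullin that tightens endothelium, stood at 0.382, 1.58 and 2.33 CPM in CON and at 4.14, 5.16 and 4.01 CPM in SAP, with a log2 fold change of 1.79 ± 0.59 (SE; edgeR, adjusted p = 0.545). F11r, the junction molecule JAM-A of epithelium and endothelium, stood at 72.9, 91.6 and 157 CPM in CON and at 190, 232 and 158 CPM in SAP, with a log2 fold change of 0.95 ± 0.32 (SE; edgeR, adjusted p = 0.545).

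In endothelial-like nuclei they were Emcn, Cavin2 and F11r, and the groups of all 3 overlapped. Emcn, a sialomucin of venules and capillaries that hinders leukocyte contact, stood at 212, 98.5 and 128 CPM in CON and at 143, 32.2 and 43.9 CPM in SAP, with a log2 fold change of -1.51 ± 0.58 (SE; edgeR, adjusted p = 0.954). Cavin2, a coat protein of caveolae, stood at 86.2, 76.6 and 67.1 CPM in CON and at 71.5, 19.3 and 39.2 CPM in SAP (log2 fold change -1.07 ± 0.49, SE; edgeR, adjusted p = 1.00). F11r stood at 62.7, 87.6 and 128 CPM in CON and at 262, 213 and 99.3 CPM in SAP (log2 fold change 0.91 ± 0.45, SE; edgeR, adjusted p = 1.00).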

How the data were processed

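Counts of UMIs per gene and barcode were made by the authors with dnbc4tools and deposited without normalization, and the submitters' processing notes name the build mRatBN7.2 and Seurat 4.3.0. The aligner and the strand of counting are not given in the sources used here. All 6 tables hold whole numbers. Each rat gave 1 library and the labels give 1 batch. Replicates of a group differed beyond sampling noise (chi-square per degree of freedom 46.2 or higher).

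Nuclei passed at 1200 UMIs, 500 genes and 5% mitochondrial UMIs, as in the methods of the study. Counts were log-normalized with scanpy 1.11.5, and 2000 variable genes without the 10 members, 30 principal components, a numpy form of Harmony and Leiden clustering (resolution 0.8, 20 neighbours) gave the clusters. A cluster was named where the mean log2 ratio of its markers was at least 0.5 and led by 0.8 with 3 or more markers detected, limits set after the clusters were seen. The endothelial cluster was split once more (15 neighbours, resolution 0.5) to set mixed nuclei aside, and the rest was split into the 4 sub-groups (resolution 0.6). Doublets were kept, and removing the top 5% of scores per library was an alternative.

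CPM is UMIs of a gene per 1000000 UMIs of the class and library. Counts summed per library and class were tested by the robust quasi-likelihood method of edgeR 4.0.16 under R 4.3.3, after TMM scaling and the filterByExpr rule on low counts, with Benjamini-Hochberg adjustment over all genes tested and DESeq2 1.42.0 as an alternative. Classes with 10 or more nuclei in every library were fitted. Shares were tested with limma 3.58.1 on logit shares with an offset of 0.5 nuclei. The fits were also run on simulated counts with large changes in well-counted genes, at a fixed spread not estimated from these libraries. Those runs do not show what the fits can detect for members with few UMIs. Intervals are exact Poisson at 95%, for counting error only. Single values were compared with exact permutation tests. CON and SAP libraries of the same number deviated together over all nuclei, where every such pair's correlation was over 0.1 (r = 0.58, 0.18 and 0.52). Of the pairs with different numbers, CON 2 with SAP 1 was also over 0.1 (0.14), and the rest ran from -0.62 to 0.05. In endothelial-like nuclei 1 same-number pair was not over 0.1 (0.27, 0.22 and -0.02), while CON 1 with SAP 3 (0.11) and CON 3 with SAP 2 (0.15) were. The labels state no pairing.

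The 10 members, the pathway lists and the marker lists were chosen with earlier results of these data known. The 5 epithelial and 4 megakaryocyte genes were chosen after the data were seen. Named besides the members are the 3 pathway genes with the lowest unadjusted p per fit, the 3 genes most like each member among those with at least 200 UMIs, and Mcph1, Glycam1, Ackr1 and Sele, chosen after their values were seen. Stereo-seq data were not analysed here.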

Additional observations from a re-analysis of the deposited data

How the results depend on the processing

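No member was called over all nuclei, in the other classes or by the interaction under the alternatives run. In endothelial-like nuclei 1 member, Madcam1, was called with no filter on low counts, where more genes are tested. Madcam1 was also the 1 member called without SAP 2, its lowest library, so leaving out a library gave 0 to 1 members. DESeq2 called 1 pathway gene over all nuclei, Mfsd2a. The replicate block, which pairs libraries of the same number, left 0 members called in every fit it was run in and turned the log2 fold change over all nuclei of Icam1 to -0.16 and of Plvap to -0.10. It changed no other direction or call of a member, and gave 1.25 ± 0.39 for Madcam1 over all nuclei (edgeR, adjusted p = 0.380).

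Of 333 recomputed values of members that passed the filter on low counts in the reported fits, which leaves out Madcam1 in endothelial-like nuclei, 310 kept their direction and none was called. Leaving out each library in turn gave log2 fold changes over all nuclei of -0.73 to 0.47 for Icam1, -0.70 to 2.26 for Vcam1, -0.38 to 1.47 for Pecam1, -1.16 to 0.76 for Plvap and -0.13 to 1.06 for Tek, each at its lowest without SAP 3. In endothelial-like nuclei it gave -0.089 to 0.57 for Pecam1, which was -0.025 without the sub-group led by Ankle1, chosen after seeing the data, and -1.58 to 0.51 for Plvap, which was 0.0083 with library totals. The interaction ran from -6.92 to 0.25 for Vcam1, which has few UMIs, from -1.30 to 0.10 for Pecam1, -1.13 to 0.27 for Vwf, -0.95 to 0.38 for Angpt2 and -1.06 to 0.39 for Tek, which was 0.10 with nuclei taken by 3 or more markers. The endothelial-like share ran from -0.45 to 0.25 on the logit scale with a library left out, and was 0.11 with nuclei taken by markers and 0.25 with the set-aside nuclei put back, an alternative chosen after seeing the data. The cause of these turns was not tested. Few UMIs per library in endothelial-like nuclei limit Selp, Madcam1, Icam1, Vcam1, Cdh5 and Angpt2 there.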
